A study of Homo sapiens with 5 samples.

Results

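The genes described here are vimentin (VIM), the transcription factors TWIST1, TWIST2, ZEB1, ZEB2, SNAI1 and SNAI2, and the matrix glycoprotein genes FN1, TNC and SPARC. They were chosen by symbol, and all 10 were found, each on 1 row, among the 18512 gene symbols of the authors' deposited table. Polyadenylated RNA had been sequenced from the established human line BT474, a luminal breast cancer line with amplified HER2. Persister cells (3 libraries) had been kept for 9 days in medium with 2 µM lapatinib, which blocks the kinases HER2 and EGFR, and 0.01% DMSO. Parental cells (2 libraries) were cultured over the same period in 0.01% DMSO without lapatinib. No group was sampled early in treatment or after removal of the drug. What the drug does directly, what follows from arrested growth and what marks the survivors cannot be told apart. The table gives 1 FPKM value per gene and group (fragments scaled to transcript length and sequencing depth) and the authors' q-value. The values below thus carry no SD, the depth of each library is unknown, and the replicate spread enters only through that q-value.

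Epithelial-mesenchymal transition, abbreviated EMT, is a programme in which epithelial cells loosen their junctions and take on features of mesenchymal cells. It is driven by DNA-binding factors of the SNAI, ZEB and TWIST families, which repress E-cadherin and other epithelial genes. Vimentin is the type III intermediate filament of mesenchymal cells. Fibronectin, tenascin C and SPARC are secreted glycoproteins of the extracellular matrix that alter adhesion. Luminal breast cells normally build their filaments from keratins and hold vimentin low.

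Persister cells had more VIM, TWIST1 and TNC transcript than parental cells. FN1 rose 2.03-fold at a low level, and SNAI1 fell to a level 3.69-fold below that of parental cells. TWIST2, ZEB1, ZEB2, SNAI2 and SPARC were at or below 0.0401 FPKM in both groups. Judged by their listed q-value, they were not covered by the authors' test. Of the 5 members it covered, 4 were called higher and 1 lower at a q-value under 0.05. That call was frequent in the whole table, where 69.9% of the 13617 tested genes met it, 30.9% as higher and 39.0% as lower. A call alone therefore says little about these members. Of the called genes, 44.2% were higher as deposited and 54.8% when both groups were rescaled to the same summed FPKM, called rescaling below. No member changed direction under that rescaling. A difference of at least 1 on the log2(FPKM + 1) scale was less common. It was met upward by 2.98% of tested genes, with VIM, TWIST1 and TNC among them, and downward by 6.01%, with no member among them.

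The sequences upstream of VIM, TNC and FN1 are shown, which are the called members with a promoter sequence in the reference used. They are the 250 bases before the transcript start in RefSeq (GRCh38.p14), in the direction of transcription. The build named in the submitters' processing notes is hg18, so the transcript starts used by the authors may differ. Capitals mark E-boxes (CANNTG, the core bound by TWIST, SNAI and ZEB proteins) and GC boxes (GGGCGG, the core bound by SP1), each searched on both strands, and neighbouring GC boxes overlap in FN1.
VIM, chr10:17227991-17228240, plus strand: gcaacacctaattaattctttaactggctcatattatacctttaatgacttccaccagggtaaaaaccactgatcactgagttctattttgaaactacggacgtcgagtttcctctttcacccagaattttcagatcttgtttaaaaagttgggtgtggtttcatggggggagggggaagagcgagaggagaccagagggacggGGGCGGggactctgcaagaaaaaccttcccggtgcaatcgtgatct
TNC, chr9:115118158-115118407, minus strand: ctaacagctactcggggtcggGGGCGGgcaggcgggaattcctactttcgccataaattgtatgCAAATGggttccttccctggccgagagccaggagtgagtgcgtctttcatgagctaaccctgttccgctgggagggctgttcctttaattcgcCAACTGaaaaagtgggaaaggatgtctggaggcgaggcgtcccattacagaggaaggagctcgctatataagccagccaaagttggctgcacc
FN1, chr2:215436069-215436318, minus strand: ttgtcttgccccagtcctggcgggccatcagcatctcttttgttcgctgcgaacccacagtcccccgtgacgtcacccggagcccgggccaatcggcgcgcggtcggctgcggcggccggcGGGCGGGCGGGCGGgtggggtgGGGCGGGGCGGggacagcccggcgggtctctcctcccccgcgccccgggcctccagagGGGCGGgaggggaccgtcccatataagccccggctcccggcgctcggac

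Base composition of these windows ranged widely. G and C made up 46.0% of the VIM window, 54.8% of that of TNC and 76.4% of that of FN1, against a median of 58.0% over 27305 promoters of the same length. E-boxes were found at 2 places in the TNC window and at none in those of VIM and FN1, while 62.2% of all promoters held 1 or more. The GC box stood once each in the VIM and TNC windows and 6 times in that of FN1, and 42.3% of all promoters held it. The E-box variant CAGGTG, found in 17.5% of all promoters, was absent from these 3 windows and stood once in that of ZEB1, whose transcript was near 0. The AP-1 core TGANTCA, found in 6.60% of all promoters, was absent from the windows of the 7 members with a sequence. The reference held no promoter sequence for TWIST1, SNAI1 and SNAI2, so they could not be searched. The windows of TWIST2, ZEB1, ZEB2 and SPARC were searched but are not shown, as these genes were not called. These matches describe the letters of the windows and carry no measurement of binding.

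Among the transcription factors, TWIST1 stood apart. TWIST1, a basic helix-loop-helix factor of mesoderm and neural crest, had 2.60 FPKM in parental cells and 19.9 FPKM in persister cells. The rise was 7.63-fold, with a difference of 2.53 on the log2(FPKM + 1) scale, and the authors' deposited table lists its q-value as 0. It was the 15th largest of the 4206 called rises. Its close relative TWIST2 was listed at 0 in parental cells and 0.00825 FPKM in persister cells. SNAI1, the zinc finger repressor Snail, went the other way, from 1.44 to 0.390 FPKM (q listed as 0). Its difference of -0.81 became -1.65 with a pseudocount of 0.1 and -1.09 after rescaling, because the pseudocount of 1 is large beside these levels. Whether SNAI1 passes a difference of at least 1 thus depends on the scale.

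The remaining factors gave almost no signal. SNAI2, which encodes Slug, had 0.00923 FPKM in parental cells and 0.0401 FPKM in persister cells. ZEB1 was listed at 0.0384 and 0.0234 FPKM. ZEB2 was listed at 0 and 2.29e-04 FPKM. The q-value was 1 for each of these genes and for TWIST2, which were not covered by the test. TWIST1 thus made up most of the summed level of the 6 factors, which was 4.09 FPKM in parental cells and 20.3 FPKM in persister cells.

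Among the effectors, VIM rose furthest. VIM had 2.24 FPKM in parental cells and 37.1 FPKM in persister cells, a 16.5-fold rise with a difference of 3.55 (q listed as 0). It was the third largest of the called rises. In parental cells 48.4% of all genes had a lower value than VIM, and in persister cells 92.1%. Keratin transcripts stayed far above it, with KRT8 at 565 and KRT18 at 328 FPKM in persister cells. In RNA from whole cultures, more cells with the transcript and more transcript per cell cannot be told apart.

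TNC encodes tenascin C, a large glycoprotein of healing wounds and tumour stroma. It had 3.24 FPKM in parental cells and 15.6 FPKM in persister cells, a 4.82-fold rise with a difference of 1.97 (q listed as 0), the 55th largest of the called rises. FN1, which encodes fibronectin, had 0.308 FPKM in parental cells and 0.626 FPKM in persister cells (q = 5.37e-10 in the authors' deposited table). Its difference was 0.31, and 0.83 with a pseudocount of 0.1. In persister cells 38.9% of all genes still had a lower value than FN1, against 79.5% for TNC. The FN1 row combines 6 RefSeq transcripts, so its splice forms were not separated. SPARC, a collagen-binding glycoprotein also called osteonectin, was listed at 0.0199 and 0.00194 FPKM and was not covered by the test.

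**Figure D1:**
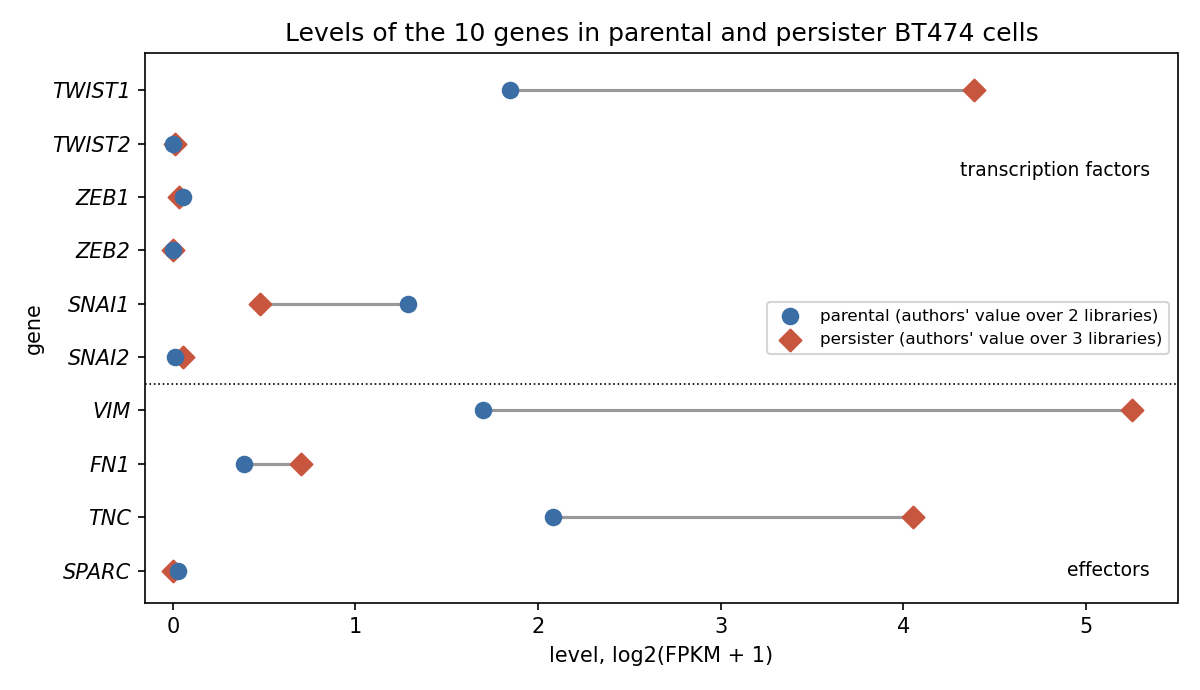
Level of each gene on the log2(FPKM + 1) scale in parental cells (circles) and persister cells (diamonds), each a single value given by the authors for the group, with the transcription factors above the dotted line and the effectors below. VIM, TWIST1 and TNC move far to the right, SNAI1 moves left from 1.44 to 0.390 FPKM, and TWIST2, ZEB1, ZEB2, SNAI2 and SPARC lie at the left edge in both groups.

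The order of the levels changed between the groups. In parental cells TNC was highest, followed by TWIST1, VIM and SNAI1, all between 1.44 and 3.24 FPKM, and then FN1. In persister cells VIM was highest, followed by TWIST1, TNC, FN1 and SNAI1. With no value per library, it is not known which neighbours in either order differ beyond their spread.

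Factors and effectors were then set side by side. Of 6 factors, 2 were covered by the test, and 1 rose and 1 fell. Of 4 effectors, 3 were covered, and all 3 rose. The median difference was 0.01 over all factors and 1.14 over all effectors, beside -0.04 over all tested genes. The class medians include the members near 0 FPKM outside the test, which the last value does not. With members under 1 FPKM in both groups left out, each class kept 2 genes, TWIST1 and SNAI1 against VIM and TNC. Both classes held a gene that rose by over 1 and at least 1 gene near 0, and no test of the classes was made.

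**Figure D2:**
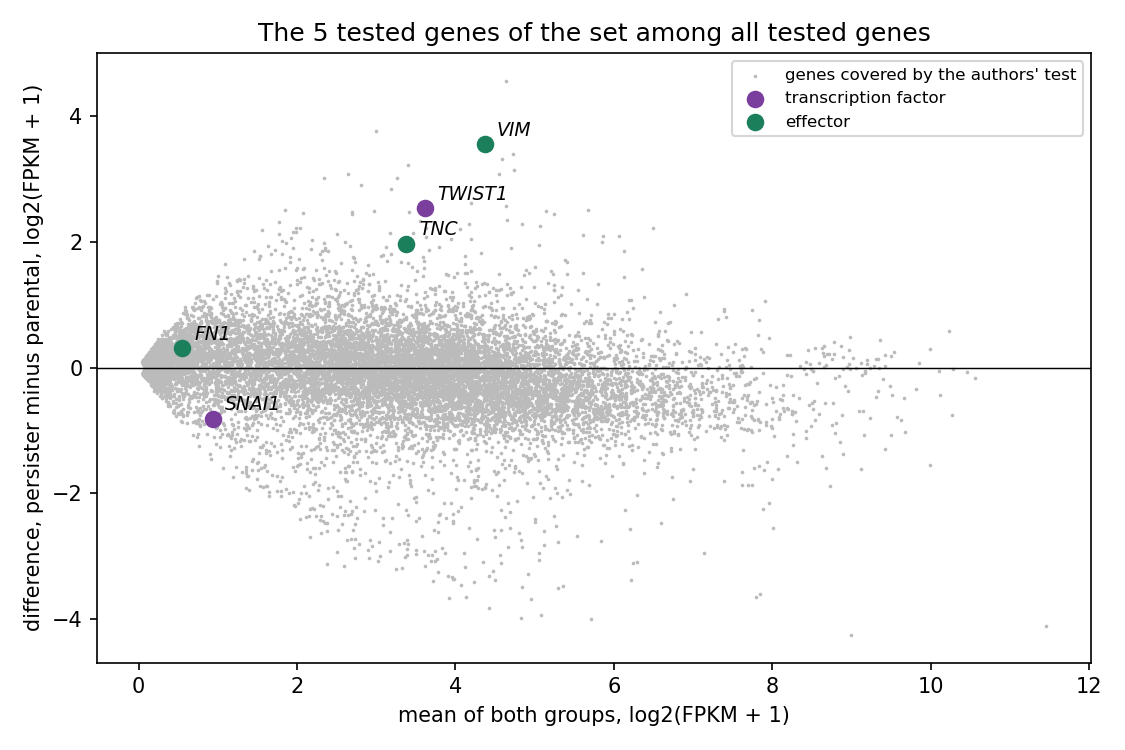
Difference between persister and parental cells against the mean of both groups, both on the log2(FPKM + 1) scale, for each gene covered by the authors' test (grey) and the 5 tested members (purple for factors, green for effectors). VIM (3.55), TWIST1 (2.53) and TNC (1.97) lie at the upper edge of the cloud, while FN1 (0.31) and SNAI1 (-0.81) lie in its low-level part.

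The tested genes nearest to each called member were found by the distance between their 2 group values on the log2(FPKM + 1) scale. Nearest to VIM were CALCOCO1 (3.38 and 42.6 FPKM in parental and persister cells), NPY1R and SDC2, at distances of 0.476 to 0.623. TWIST1 had closer neighbours, ABTB1 (2.42 and 18.7 FPKM), TRIM29 and ALS2CL, at 0.112 to 0.254. Nearest to TNC were HSD11B2 (3.50 and 16.2 FPKM), CALHM2 and SFXN3, at 0.099 to 0.205. The nearest gene was ZC3H6 at 0.006 for FN1 and FOLR1 at 0.020 for SNAI1. With 2 values per gene, this likeness is only one of level and fold.

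Related gene lists are described by their counts and medians, to be read beside the 30.9% higher, 39.0% lower and the median of -0.04 over all tested genes. Partners and antagonists of TWIST1 form the first list. TWIST proteins bind DNA in pairs with E proteins, and ID proteins, which lack a DNA-binding region, sequester those partners. Of 9 listed genes 7 were tested, of which 4 rose and 1 fell, with a median of 0.21 as deposited and 0.57 after rescaling. ID3 rose from 21.1 to 93.5 FPKM (a difference of 2.10) and ID4 from 1.03 to 4.93 FPKM (1.55). The E protein TCF4 rose from 0.00600 to 0.264 FPKM, a level that stayed low. TCF3, the most abundant E protein gene of the list, was called lower at 40.0 and 34.5 FPKM, but its difference of -0.21 became 0.14 after that rescaling.

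The other EMT-associated factors moved in both directions. Of 14 listed 10 were tested, with 3 higher, 6 lower and a median of -0.18, and after rescaling 5 were higher and 4 lower with a median of 0.04. TBX2, a T-box repressor, rose from 3.43 to 7.03 FPKM, TBX3 from 28.6 to 36.4 FPKM and KLF8 from 5.41 to 7.01 FPKM. The homeobox gene MSX1 fell from 1.19 to 0.556 FPKM. Cofactors through which SNAI and ZEB proteins repress, were listed together with enzymes that set Snail stability. Of 12 tested, 7 were called lower and 5 were not called, and 2 of the 7 were higher after rescaling. Their median of -0.21 as deposited became 0.13 after rescaling. EZH2, the H3K27 methyltransferase, fell from 27.9 to 8.41 FPKM and the deacetylase HDAC2 from 27.0 to 15.1 FPKM. The polycomb subunit SUZ12 fell from 20.3 to 14.3 FPKM and the LIM protein gene AJUBA from 12.4 to 8.57 FPKM. The difference of each was -0.48 as deposited, and after rescaling -0.14 for SUZ12 and -0.17 for AJUBA.

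Epithelial genes stayed abundant in persister cells. CDH1, the E-cadherin gene that SNAI, ZEB and TWIST factors repress, fell from 143 to 90.0 FPKM (q listed as 0), with a difference of -0.66 as deposited and -0.31 after rescaling. Of 23 tested junction and polarity genes, 5 rose and 10 fell, both as deposited and after rescaling. Their median of -0.09 became 0.26 after rescaling, so the sign of the median depends on scaling. CLDN7, a claudin of tight junctions, fell from 93.2 to 49.2 FPKM, and CDS1 from 10.8 to 5.86 FPKM. JUP, which encodes plakoglobin, rose from 116 to 217 FPKM and PATJ, a polarity scaffold, from 8.45 to 19.1 FPKM. Of 13 tested epithelial factors that oppose EMT, 5 rose and 5 fell as deposited, with a median of -0.05. Rescaled, 8 were higher and 2 lower, with a median of 0.30. The luminal factor GATA3 rose from 14.1 to 43.3 FPKM and KLF4 from 12.7 to 19.1 FPKM, while the splicing regulator ESRP1 fell from 78.3 to 55.1 FPKM and the ETS factor EHF from 36.8 to 27.5 FPKM. After rescaling the difference of ESRP1 went from -0.50 to -0.15 and that of EHF from -0.41 to -0.07.

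Other mesenchymal markers did not move as 1 group. Of 21 listed 13 were tested, with 7 higher and 4 lower, and the median was 0.12 as deposited and 0.41 after rescaling. FSTL1, a secreted relative of SPARC, rose from 0.896 to 5.26 FPKM, CD44, the hyaluronan receptor, from 2.08 to 4.59 FPKM, and cadherin 11 (CDH11) from 0.0710 to 0.738 FPKM. S100A4, a calcium-binding protein, fell from 12.4 to 3.70 FPKM. CDH2, the N-cadherin gene, named after its values were seen, rose from 0.321 to 0.956 FPKM. The median depends on how low genes are handled. It was 0.54 with a pseudocount of 0.1 and 0.66 over genes with at least 1 FPKM in a group. The latter rests on S100A4, CD44, FSTL1 and FERMT2 only.

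Of 17 other intermediate filament and linker genes 9 were tested. Among these 9, 7 fell and 2 rose, and the median was -0.43 as deposited and -0.20 after rescaling. The nuclear lamin LMNB1 fell from 49.2 to 5.94 FPKM (a difference of -2.86), and LMNB2 from 34.6 to 11.4 FPKM (-1.53). Of the keratins, KRT7 fell from 482 to 290.0 FPKM (-0.73) and KRT18 from 483 to 328 FPKM (-0.55). KRT8 fell from 730.4 to 565 FPKM as deposited, and its difference was -0.01 after rescaling. The genes that rose, SYNM (3.10 to 4.19 FPKM) and LMNA (182 to 223 FPKM), and the linker gene PLEC were named after their values were seen. PLEC was listed at 29.8 and 44.9 FPKM with a q-value of 1, so it was counted as not tested.

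Other matrix glycoproteins were more often higher than lower. Of 47 listed 33 were tested, with 21 higher and 6 lower, both as deposited and after rescaling. Their median was 0.16 as deposited, 0.52 after rescaling, 0.60 with a pseudocount of 0.1 and 0.37 over genes with at least 1 FPKM in a group. On the log2(FPKM + 1) scale the largest rises of the list were those of WISP2, a CCN family gene, from 0.279 to 4.56 FPKM, and of the matrilin MATN2, from 6.19 to 28.6 FPKM. FBLN1, which encodes the fibronectin-binding fibulin 1, fell from 5.91 to 0.739 FPKM, and ECM1 from 8.65 to 1.76 FPKM. By ratio, further lower-level genes, named after their values were seen, rose more than MATN2 (4.63-fold). VTN, which encodes vitronectin, rose 7.22-fold from 0.393 to 2.83 FPKM. EDIL3 rose 10.6-fold from 0.0142 to 0.151 FPKM and THBS4 5.07-fold from 0.0179 to 0.0906 FPKM. Of the 33 tested genes, 4 were higher and 2 lower by at least 1, beside 2.98% and 6.01% of all tested genes. THBS1, also named after its values were seen, rose from 19.4 to 50.8 FPKM (a difference of 1.35). THBS3, named after its values were seen, was listed at 4.29 and 18.6 FPKM with a q-value of 1, so it was counted as not tested.

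Receptors of these glycoproteins and genes for their assembly moved both ways. Of 14 tested, 7 rose and 6 fell, and 8 and 5 after rescaling. The median was -0.00 as deposited and 0.24 after rescaling. Syndecan 4 (SDC4), a fibronectin co-receptor, rose from 42.2 to 77.4 FPKM, annexin A2 (ANXA2), a tenascin C receptor, from 76.0 to 111 FPKM, and the integrin gene ITGB8 from 0.143 to 0.606 FPKM. FBLN1 also belongs to this list.

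**Figure D3:**
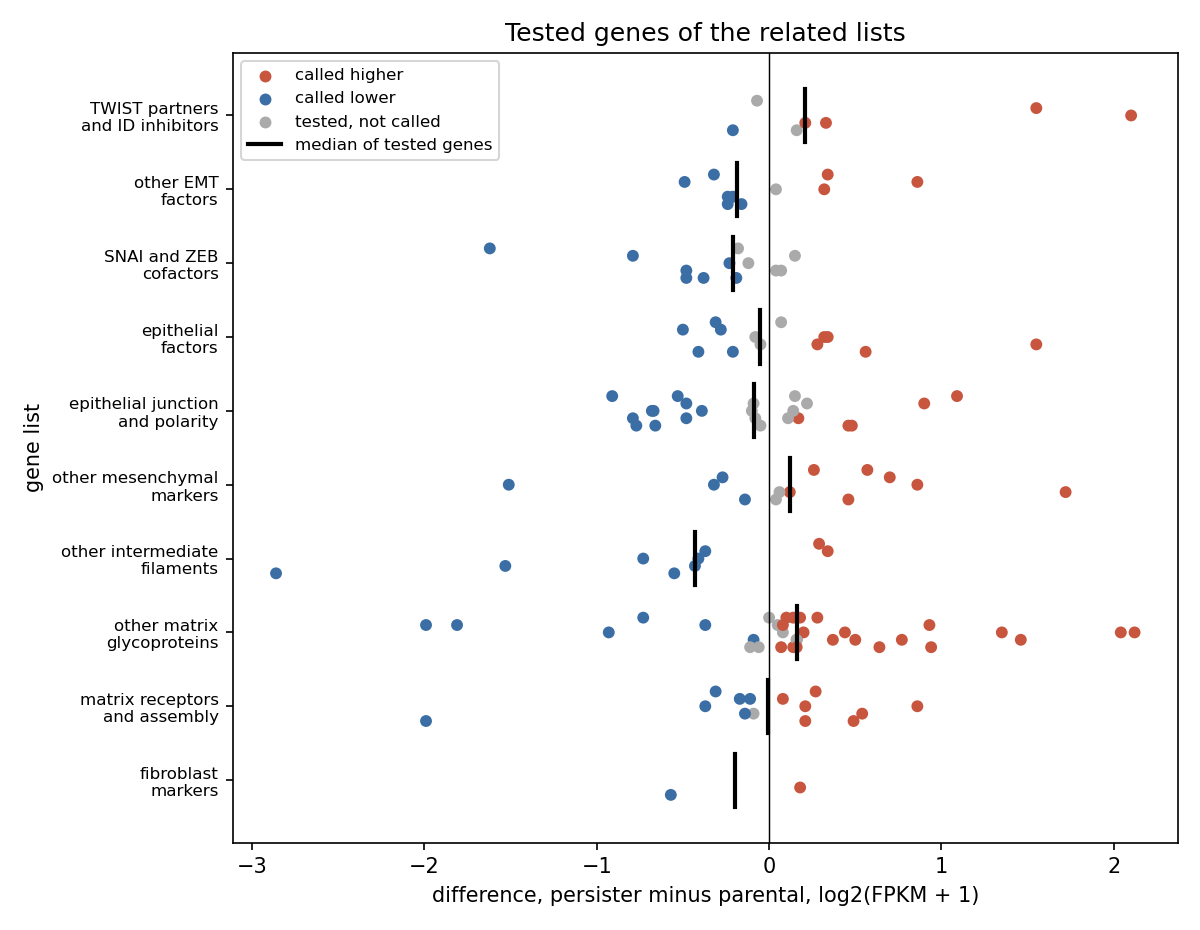
Difference between persister and parental cells on the log2(FPKM + 1) scale for each tested gene of 10 related lists, coloured by the authors' q-value call, with the median of the tested genes as a black bar. ID3 (2.10) and ID4 (1.55) lead the TWIST partners and inhibitors, 7 of the 9 filament genes lie to the left of 0, and the matrix glycoproteins spread from FBLN1 (-1.99) to WISP2 (2.12).

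Markers of other cell types were examined beside the rise of VIM, TWIST1 and TNC. Of 11 fibroblast markers 9 were outside the test, at 0.0164 FPKM or less, among them DCN, LUM, PDGFRA, PDGFRB and FAP, and THY1 was listed at 0 in both groups. The summed level of the list was 13.6 FPKM in parental cells and 8.99 FPKM in persister cells, most of it from COL1A1, which fell from 13.4 to 8.73 FPKM, and COL6A3 rose from 0.0933 to 0.236 FPKM. The 7 endothelial markers summed to 3.46 and 2.45 FPKM, most of it from ESAM, which was not called at 2.28 and 2.30 FPKM. At lower levels, CDH5 fell from 0.592 to 0.0441 FPKM, VWF from 0.487 to 0.0884 FPKM and CLDN5 from 0.0882 to 0.00610 FPKM. The 8 immune markers summed to 7.11 and 6.06 FPKM, none of the 3 tested was called, and the highest were LYZ (4.61 and 4.06 FPKM) and CD68 (2.30 and 1.97 FPKM). As deposited, each of these 3 sums was lower in persister cells. After rescaling the fibroblast sum was 40.7 and 34.6, the endothelial sum 10.4 and 9.42, and the immune sum 21.3 and 23.3, the last then being higher in persister cells, and the part of these markers in the rise of the members was not tested. The luminal markers KRT8, KRT18, KRT19, EPCAM, CDH1, GATA3 and ESR1 were all present in both groups. ERBB2, the amplified gene of this line, was listed at 0 in both and could not be used as a check. Whether a listed 0 of any other gene means an absent transcript cannot be decided from these values.

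The libraries did not keep strand, so reads from an overlapping gene on the other strand could not be told apart. In GENCODE 29, 6 of the 10 members overlap such a gene. VIM overlaps VIM-AS1 and TNC overlaps DEC1, whose own row was listed at 0.00263 and 0.0358 FPKM. For the other overlapping genes no value was used here, and their part in the levels of TWIST1, VIM, ZEB1, ZEB2 and SPARC was not tested.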

How the data were processed

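Polyadenylated RNA from 2 parental and 3 persister libraries, which the submitters describe as biological replicates, was sequenced without strand information, per the labels' protocols. Per the submitters' processing notes, the build was hg18 and the tools were TopHat2 2.0.6, CASAVA 1.8, Cuffdiff 2.0.2 and Cufflinks, and no settings are given. Per the file headers, the authors gave 1 FPKM value per gene for each group. The deposited q-value is theirs, and how it was adjusted is not stated. In 2712 of 18803 rows it stands as 0.

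Neither counts nor single libraries are in the table, so depth, SD and intervals are unknown. Calls are q-values under 0.05 among genes with a q-value below 1 (0.0656 FPKM or more in a group). All other genes were taken as not covered by the test, a reading that rests on the q-value alone. A symbol on more than 1 row (269 symbols) was represented by its row of highest mean, and 25 of 26 rows with a date for a symbol were named through their transcripts. Differences are log2(FPKM + 1), persister minus parental, and the pseudocount of 1 understates changes of low genes. The median difference over 10160 genes with at least 1 FPKM in both groups was -0.12. Rescaling each group to a sum of 1000000 shifts ratios by 0.36 (log2) and lowers the weight of the pseudocount. Python 3.11.15 and pandas 2.3.3 were used, and the counting was tested on simulated data. Named genes were all members, up to 4 called genes of largest difference per list (or the 2 of highest mean), the 3 nearest genes of each called member, and CDH1, KRT8 and KRT18. The marker genes used to check the cell type are named as well, and any other gene was chosen after its values were seen. The members and lists were chosen with earlier results of these data known.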

Additional observations from a re-analysis of the deposited data

How the results depend on the processing

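No paired analysis was possible because the table holds 1 value per group, and for the same reason no library could be left out. In 15 recalculations on another scale (a pseudocount of 0.1, the all-gene median subtracted, or equal sums), 0 of the 5 called members changed direction. Requiring a difference of at least 1 as well left 3 members called in place of 5, losing SNAI1 and FN1, 1225 genes in place of 9514 over the whole table, and 15 in place of 109 among the related lists. A q-value under 0.01 kept 5 members. A minimum of 1 FPKM in a group removed FN1 and left 4, and the median of effectors minus that of factors went from 1.14 to 1.90 with only 2 genes in each class. The same minimum turned the median of other EMT-associated factors from -0.18 to 0.04, with fewer genes tested. That of endothelial markers went from -0.28 to 0.01, which is the value of ESAM alone. A pseudocount of 0.1 turned the fibroblast median, which rests on 2 genes, from -0.20 to 0.09. Because depth is unknown, no detection limit can be given for the members near 0.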
